A study of Mus musculus with 6 samples.

Results

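Tumour necrosis factor (TNF), 7 related cytokines and the pair of receptors for TNF were followed at the RNA level in mouse macrophages given interferon-gamma (IFN-γ). The 10 genes were chosen by symbol, from 36706 entries in each of 6 deposited count tables. They are the ligand genes Tnf, Tnfsf9, Tnfsf10, Tnfsf12, Tnfsf13, Tnfsf13b, Tnfsf14 and Tnfsf15, and the receptor genes Tnfrsf1a and Tnfrsf1b. The libraries came from bone marrow-derived macrophages of wild-type (WT) mice, cells grown out of bone marrow with 20 ng/mL of the growth factor M-CSF, and this medium was shared by both groups. The medium also held 10% serum and 1% antibiotic and was changed on days 3 and 5. A group of 3 libraries came from cells left untreated, and a group of 3 from cells given IFN-γ, with 3 h recorded for both groups. The labels record neither strain, sex and age of the mice nor the dose of IFN-γ. They also do not say whether the replicates were separate mice or cultures, so each p-value reflects the spread among 3 libraries, which may be technical only. The study asked by which mechanism ACOD1, which synthesizes itaconate, is induced by IFN-γ.

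TNF is made by macrophages as a membrane protein of 3 identical chains and is cut from the surface by the protease ADAM17. Soluble TNF acts mainly through TNFR1 (Tnfrsf1a), which carries a death domain and is found on most cells, while TNFR2 (Tnfrsf1b) has no death domain and is found mainly on immune and endothelial cells. The relatives share the trimeric fold and act on receptors of their own: 4-1BB ligand (Tnfsf9), TRAIL (Tnfsf10), TWEAK (Tnfsf12), APRIL (Tnfsf13), BAFF (Tnfsf13b), LIGHT (Tnfsf14) and TL1A (Tnfsf15).

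Total counts ran from 28133342 to 34233607 per library. Levels are given as CPM, counts relative to the TMM-scaled library total, for comparisons of 1 gene between groups, and as deposited TPM, which divides by exon length, for comparisons between genes. The limit that a count of 0 allows, 3 counts, equals 0.089 to 0.101 CPM depending on the library, and covers counting error only. Macrophage markers were abundant: the 8 listed summed to between 19600 and 21200 CPM in untreated libraries and between 20800 and 22100 CPM with IFN-γ. Markers of other cells were sparser. The 9 T cell markers summed to between 2.98 and 3.56 CPM untreated and between 3.32 and 4.19 CPM with IFN-γ. Of these, the defining gene Cd3e had 0 counts in all 6 libraries, Cd4 had between 47 and 72, and Lck rose from 8, 8 and 10 counts to 44, 36 and 32. The 6 natural killer cell markers summed to at most 0.26 CPM and the 6 B cell markers to at most 4.97 CPM. The 8 neutrophil markers summed to between 70.6 and 93.9 CPM untreated and between 121 and 133 CPM with IFN-γ, mostly S100a8 and S100a9, with Ly6g at 2 counts or fewer. Ltf rose from 26, 42 and 27 counts to 90, 65 and 57. Mpo had between 21 and 48 counts, Elane between 11 and 27, Camp between 6 and 12, and Retnlg at most 5. The 6 dendritic cell markers summed to between 1.84 and 2.19 CPM untreated and between 5.44 and 6.06 CPM with IFN-γ. By the test below, Xcr1 (5.18-fold) and Clec9a (3.27-fold) were called higher, 3 were not called and 1 was not tested. The 6 stromal and endothelial markers summed to between 1.73 and 2.76 CPM untreated and between 3.09 and 3.91 CPM with IFN-γ. The 5 erythroid markers summed to at most 0.304 CPM. The part of these shifts in the results was not tested, and in bulk RNA a change in the number of cells of a type cannot be told apart from a change in RNA per cell.

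Of the 10 genes, 5 rose with IFN-γ: Tnfsf10, Tnf, Tnfsf15, Tnfrsf1a and Tnfsf13b (quasi-likelihood test of edgeR, adjusted p below 0.05 by Benjamini-Hochberg over 12968 genes). Over all genes tested, 19.6% were called higher by the same rule, 16.8% lower and 36.4% in either direction. All 10 genes passed the filter on low counts. None of the 10 was called lower, against 1 at an unadjusted p under 0.05, 1 by DESeq2 and 0 by limma-voom. At 2-fold or more, 3 of the 10 rose, against 6.17% of all genes tested. The median log2 fold change was 0.44 over the 10 genes and -0.014 over all genes tested. The CPM of the groups did not overlap for 7 of the 10, where 50.1% of all genes tested had groups that did not overlap. In 6 of those 7 the IFN-γ group was the higher one, which held for 25.9% of all genes tested.

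**Figure D1:**
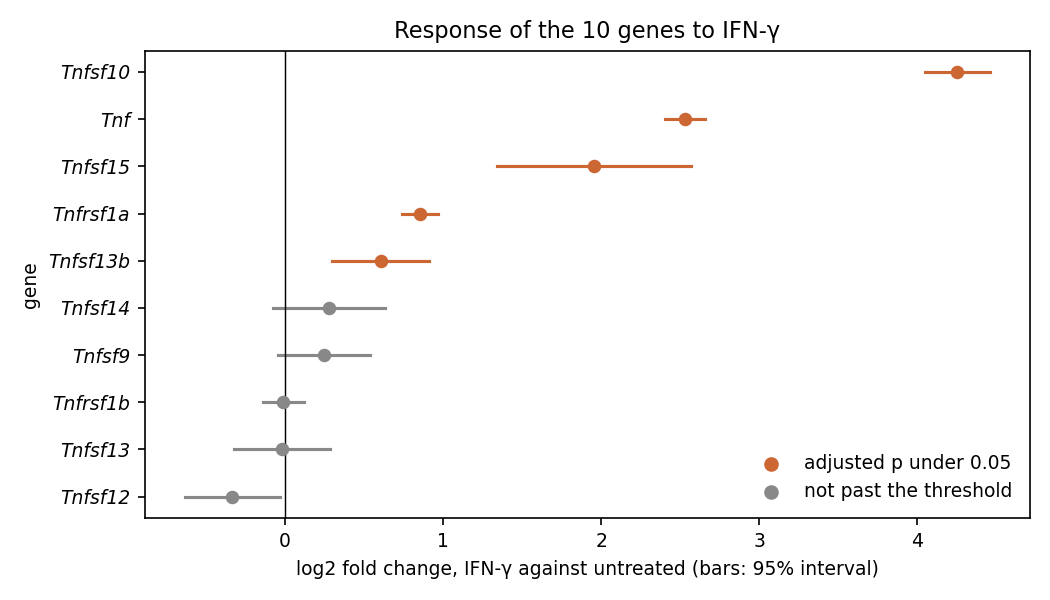
Log2 fold change of each of the 10 genes, IFN-γ against untreated (x axis), with the 95% interval of the edgeR fit (bars, 3 libraries a group). Tnfsf10 lies at 4.25 and Tnf at 2.53, and the intervals of Tnfsf9, Tnfsf13, Tnfsf14 and Tnfrsf1b include 0.

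Tnf was by far the most abundant ligand of the set and rose almost 6-fold. It had 3273, 3397 and 3732 counts in the untreated libraries and 21037, 19629 and 20006 counts with IFN-γ. The CPM were 109, 115 and 111 untreated and 648, 639 and 644 with IFN-γ, so the groups lay far apart and the libraries of each group lay close together. The fold change was 5.78, with a 95% interval from 5.28 to 6.32 (adjusted p = 1.83e-08, edgeR). By deposited TPM, Tnf stood above 92.3% of tested genes in untreated cells and above 98.4% with IFN-γ. In the tables Tnf lies on chromosome 17, minus strand, from 35418343 to 35420983, and its 4 merged exons hold 1653 bases. The tables name no genome build, so these coordinates are theirs and cannot be set beside those of the promoter sequences. In build GRCm38.p6 the promoter of Tnf lies from 35202008 to 35202257, which does not meet the gene end given here. The deposited coordinates are thus not those of GRCm38.p6.

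Tnfsf10 encodes TRAIL, a ligand known for triggering apoptosis through death receptors. It made the largest relative rise of the 10 genes, from a low start. It had 44, 41 and 42 counts untreated and 853, 804 and 796 counts with IFN-γ. The level rose from 1.365 ± 0.11 to 26.03 ± 0.342 CPM (mean ± SD, n = 3 each), 19.1-fold with a 95% interval from 16.5 to 22.0 (adjusted p = 1.44e-08, edgeR). By TPM it stood above 11.5% of tested genes untreated and above 50.1% with IFN-γ. The tables place it on chromosome 3, plus strand, from 27371226 to 27393814, with 5 merged exons.

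Tnfsf15 and Tnfsf13b also rose, at low levels. Tnfsf15 encodes TL1A, which co-stimulates T cells through death receptor 3. It had 11, 6 and 8 counts untreated and 38, 32 and 29 counts with IFN-γ, and no count of one group reached the other. The fold change was 3.88, with a 95% interval from 2.53 to 5.93 (adjusted p = 0.000701, edgeR), and the width of that interval goes with the small counts. Tnfsf13b encodes BAFF, a survival factor of B cells. It had 61, 54 and 59 counts untreated and 82, 93 and 92 with IFN-γ, or 1.868 ± 0.143 and 2.839 ± 0.273 CPM (n = 3 each). The fold change was 1.52, with a 95% interval from 1.23 to 1.88 (adjusted p = 0.00855, edgeR). Tnfsf15 lies on chromosome 4 from 63642837 to 63663296, minus strand, and Tnfsf13b on chromosome 8 from 10056229 to 10086000, plus strand. A stretch of 251 exon bases of Tnfsf15, 4.34% of its length, overlaps an entry on the other strand, Gm42294, that held 2 counts in all.

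The other 4 ligands did not pass the test. Tnfsf9, the ligand of the T cell co-stimulator 4-1BB, had 6.78, 9.07 and 7.23 CPM untreated and 8.1, 9.61 and 9.63 CPM with IFN-γ, and the groups overlapped through untreated replicate 2. Its fold change was 1.19, with a 95% interval from 0.967 to 1.45 (adjusted p = 0.175, edgeR). Without untreated replicate 2 it was called higher, with a log2 fold change of 0.376 and an adjusted p of 0.0145. It was also called when each library's trend on exon length was removed (0.289, adjusted p = 0.0182). Tnfsf14, which encodes LIGHT, had 2.76, 2.71 and 1.93 CPM untreated and 2.9, 3.06 and 2.96 CPM with IFN-γ. These groups did not overlap, yet the fold change of 1.21 had a 95% interval from 0.947 to 1.55 (adjusted p = 0.205, edgeR). Without untreated replicate 3, its lowest library, the log2 fold change went from 0.277 to 0.111. It was 0.129 with upper quartile scaling and 0.108 with total counts, which moved the median of all genes by -0.147 and -0.17.

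Tnfsf12 and Tnfsf13 are neighbours, 686 bases apart on the minus strand of chromosome 11 in the tables. Tnfsf12, the gene of TWEAK, had 35.7, 47.8 and 34.9 CPM untreated and 29.9, 29.3 and 34.6 CPM with IFN-γ. All 3 untreated libraries lay above the treated ones, by a narrow gap between untreated replicate 3 and IFN-γ replicate 3. The fold change was 0.793, with a 95% interval from 0.644 to 0.976, and the adjusted p was 0.079 (edgeR). DESeq2 called it lower (adjusted p = 0.0469). It was also called lower with upper quartile scaling (-0.484 on the log2 scale, adjusted p = 0.0204), with total counts alone (-0.502, 0.00913) and with the exon length trend removed (-0.289, 0.0249). Upper quartile scaling and total counts moved the median of all genes by -0.147 and -0.17, so relative to the median Tnfsf12 lay near its value in the TMM fit. Without untreated replicate 2, its highest library, the log2 fold change was -0.174. With any 1 library left out it was not called, with adjusted p of up to 0.222. Tnfsf13, the gene of APRIL, had 5.05, 4.91 and 5.66 CPM untreated and 4.28, 5.93 and 5.25 CPM with IFN-γ, and the groups overlapped. Its fold change was 0.987, with a 95% interval from 0.799 to 1.22 (adjusted p = 0.93, edgeR), so changes within that interval were not excluded.

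Counts of this pair are uncertain as single genes. An entry on the same strand, Tnfsfm13, covers 57.7% of the exon length of Tnfsf12 and 74.7% of that of Tnfsf13. It was given 5 counts in all 6 libraries together, against a mean of 1102 per library for Tnfsf12 and 162 for Tnfsf13. In GENCODE M21 transcripts, 46.8% of the 50-base stretches of Tnfsf12 and 57.3% of those of Tnfsf13 also occur in another gene, mainly Tnfsfm13. No source used here says how reads in shared exons were counted. For the other 8 genes that share was at most 0.335%.

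Per length, the 10 genes spanned more than 3 orders of magnitude. In untreated cells the order by mean TPM was Tnfrsf1a (170.4 ± 14.7), Tnf (146.7 ± 7.22), Tnfrsf1b (90.13 ± 8.02), Tnfsf12 (50.29 ± 5.21) and Tnfsf9 (11.07 ± 0.908). There followed Tnfsf13 (6.77 ± 0.929), Tnfsf14 (2.86 ± 0.498), Tnfsf13b (1.88 ± 0.223), Tnfsf10 (0.601 ± 0.0603) and Tnfsf15 (0.102 ± 0.0374), each ± SD with n = 3. No neighbours in that order had overlapping ranges, though the lowest untreated TPM of Tnfrsf1a (154) was close to the highest of Tnf (152). With IFN-γ, Tnf moved to the top at 780.5 ± 31.2 TPM, ahead of Tnfrsf1a at 283.2 ± 14.7. Tnfsf10 moved from the ninth place to the sixth, at 10.55 ± 0.474 TPM, just below Tnfsf9 at 12.13 ± 0.776. The ranges of neighbours again did not overlap.

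**Figure D2:**
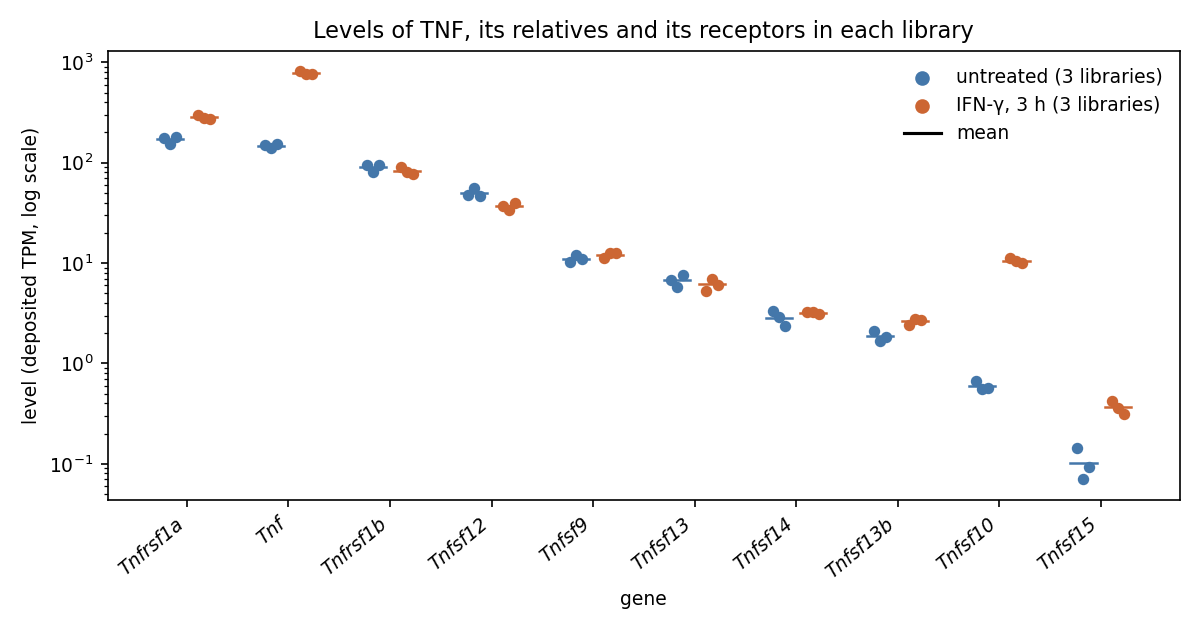
Deposited TPM of each gene in each library (log axis), untreated in blue and IFN-γ in orange, with group means as lines (n = 3 each). Tnf and Tnfrsf1a lie at 139 TPM or more in all 6 libraries, and Tnfsf15 lies at 0.422 TPM or less in all 6.

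Within each library, Tnf made up a larger share of the ligand transcripts after IFN-γ. The 8 ligands summed to 220, 218 and 223 TPM untreated and 887, 833 and 837 TPM with IFN-γ. Tnf held 67.7%, 63.6% and 68.4% of that sum untreated and 92.1%, 91.5% and 91.1% with IFN-γ. The share of Tnfsf12, whose count is uncertain for its shared exons, went from 22.8 ± 2.6% to 4.34 ± 0.38%, in a sum that had grown. Tnfsf10 went from 0.273 ± 0.0274% to 1.24 ± 0.023%. Shares and ratios within a library do not depend on how the libraries were scaled against each other.

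**Figure D3:**
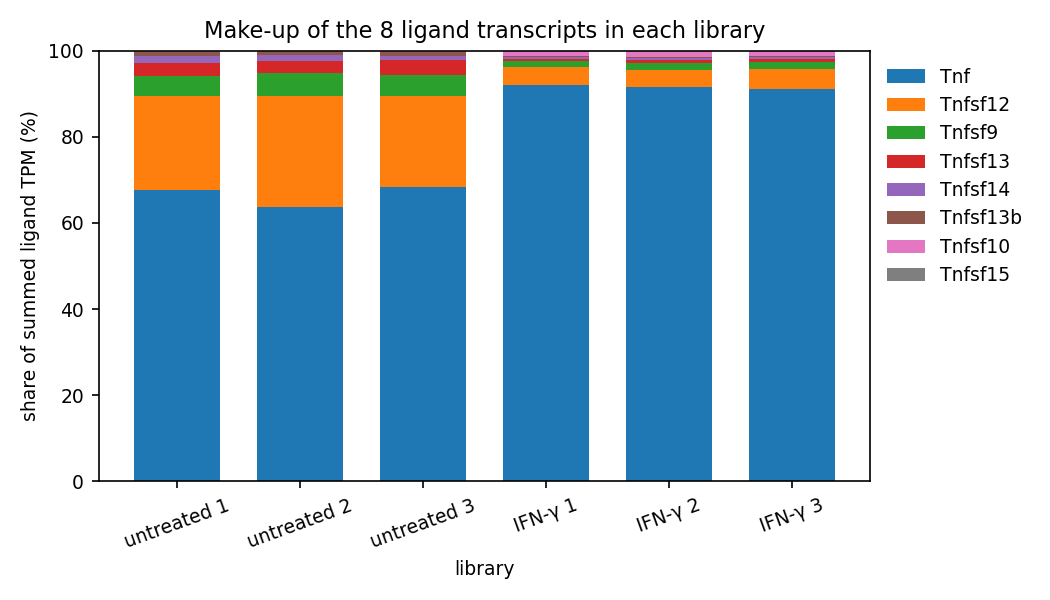
Share of each of the 8 ligand genes in their summed TPM (y axis, percent), 1 bar per library. Tnf fills between 63.6% and 68.4% of the untreated bars and between 91.1% and 92.1% of the IFN-γ bars, and the band of Tnfsf12 narrows.

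The receptor genes parted from each other. Tnfrsf1a, the gene of TNFR1, had 168, 166 and 171 CPM untreated and 311, 301 and 302 CPM with IFN-γ. The groups lay apart and the fold change was 1.81, with a 95% interval from 1.67 to 1.96 (adjusted p = 4.96e-06, edgeR). Tnfrsf1b, the gene of TNFR2, had 207, 200 and 204 CPM untreated and 213, 200 and 193 CPM with IFN-γ, and the groups overlapped. Its fold change was 0.992, with a 95% interval from 0.906 to 1.09 (adjusted p = 0.9, edgeR). Upper quartile scaling and total counts alone called Tnfrsf1b lower, at -0.159 (adjusted p = 0.0485) and -0.182 (0.0416) on the log2 scale. Those scalings moved the median of all genes by -0.147 and -0.17, so relative to the median Tnfrsf1b lay near 0 under them as well.

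The difference between the receptors was read within each library as a ratio of TPM. Tnfrsf1a stood at 1.86, 1.9 and 1.91 times Tnfrsf1b untreated and at 3.34, 3.44 and 3.56 times with IFN-γ. Tnf stood at 0.842, 0.903 and 0.844 times Tnfrsf1a untreated and at 2.72, 2.77 and 2.79 times with IFN-γ. In both ratios the groups did not overlap, and the exact two-sided permutation p was 0.1, the smallest that 3 libraries against 3 allow. The ratio of Tnfsf13 to Tnfsf13b, the related ligands APRIL and BAFF, was 3.61 ± 0.498 untreated and 2.33 ± 0.173 with IFN-γ, without overlap and with the same exact p of 0.1. The level of that ratio is uncertain, since Tnfsf13 shares exons with Tnfsfm13. Over the 10 ratios computed, the adjusted p was 0.111 for each of the 9 ratios whose groups did not overlap. The tables place Tnfrsf1a on chromosome 6, plus strand, from 125326686 to 125339446, and Tnfrsf1b on chromosome 4, minus strand, from 144938938 to 144973453, with 10 merged exons each.

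The promoters of the genes that rose and of Tnfrsf1b, which was not called, are shown so that members with different responses can be compared. Each is the 250 bases before the start site from RefSeq, build GRCm38.p6, and capitals mark matches to 4 motifs searched on both strands. The motifs were the kappaB pattern of NF-κB (GGG, any 5 bases, CC), the core of the ISRE bound by IRF factors (GAAA, any 2 bases, GAAA), AP-1 (TGANTCA) and the CRE half-site (TGACG).
Tnf, chr17:35202008-35202257, minus strand: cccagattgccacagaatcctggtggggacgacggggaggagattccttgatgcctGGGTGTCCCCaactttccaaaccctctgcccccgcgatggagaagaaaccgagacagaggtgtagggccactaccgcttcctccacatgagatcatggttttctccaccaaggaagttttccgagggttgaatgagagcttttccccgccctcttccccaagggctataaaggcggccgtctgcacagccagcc
Tnfsf10, chr3:27316827-27317076, plus strand: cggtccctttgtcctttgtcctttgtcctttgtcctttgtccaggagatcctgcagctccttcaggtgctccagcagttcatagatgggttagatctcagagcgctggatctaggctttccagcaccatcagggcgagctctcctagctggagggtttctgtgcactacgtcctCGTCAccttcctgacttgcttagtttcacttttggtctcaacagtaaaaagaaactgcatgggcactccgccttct
Tnfsf13b, chr8:10006383-10006632, plus strand: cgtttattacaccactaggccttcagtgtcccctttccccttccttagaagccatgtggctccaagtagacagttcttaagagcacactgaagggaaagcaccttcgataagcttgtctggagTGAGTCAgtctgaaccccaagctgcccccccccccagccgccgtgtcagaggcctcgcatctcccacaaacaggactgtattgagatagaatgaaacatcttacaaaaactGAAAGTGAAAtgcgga
Tnfsf15, chr4:63745060-63745309, minus strand: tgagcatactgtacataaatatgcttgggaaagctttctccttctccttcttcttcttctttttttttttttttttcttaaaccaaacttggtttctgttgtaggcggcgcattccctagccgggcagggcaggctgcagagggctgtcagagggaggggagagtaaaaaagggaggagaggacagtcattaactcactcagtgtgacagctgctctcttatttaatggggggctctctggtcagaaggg
Tnfrsf1a, chr6:125349473-125349722, plus strand: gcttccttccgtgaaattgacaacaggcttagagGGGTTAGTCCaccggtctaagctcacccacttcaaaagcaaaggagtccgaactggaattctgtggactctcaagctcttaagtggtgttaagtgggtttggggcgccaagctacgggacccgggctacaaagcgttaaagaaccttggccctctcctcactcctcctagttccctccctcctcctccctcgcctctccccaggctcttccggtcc
Tnfrsf1b, chr4:145246871-145247120, minus strand: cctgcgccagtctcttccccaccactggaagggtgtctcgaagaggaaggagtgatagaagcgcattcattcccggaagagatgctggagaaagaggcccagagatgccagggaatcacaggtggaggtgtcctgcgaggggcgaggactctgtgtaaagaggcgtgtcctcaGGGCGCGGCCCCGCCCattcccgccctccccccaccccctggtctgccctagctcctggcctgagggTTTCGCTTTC
In Tnf the capitals are a kappaB match from -194 to -185. In Tnfsf10 they are a CRE half-site from -76 to -72 on the other strand, and in the window of Tnfsf15 there was no match. Tnfsf13b has an AP-1 match from -127 to -121 and an ISRE core from -16 to -7 in this entry, and no match in its other entry. Tnfrsf1a has a kappaB match from -216 to -207. Tnfrsf1b has 3 overlapping kappaB matches between -77 and -62 and an ISRE core from -10 to -1. The promoters not shown, of Tnfsf13 and Tnfsf14, each hold an AP-1 match and kappaB matches. The uncalled genes with an entry, Tnfrsf1b, Tnfsf13 and Tnfsf14, all held matches, and Tnfsf15, which rose, had none in its window. Whether matches go with the response was not tested. Of the 32851 promoter entries, 45.8% hold a kappaB match in the same window, 17.8% a CRE half-site, 6.75% an AP-1 and 2.98% an ISRE core. Of the 10 genes, 8 had an entry, and Tnfsf9 and Tnfsf12 were the 2 without. A match describes letters in this window and is neither a site nor a cause.

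Receptors of the other ligands differed from one another in their response. Tnfrsf14, the receptor HVEM for LIGHT, rose from 28.71 ± 1.64 to 179.0 ± 1.41 CPM (n = 3 each), 6.23-fold (adjusted p = 2.06e-08, edgeR), while Tnfsf14 itself did not pass the test. The ratio of Tnfsf14 to Tnfrsf14 in TPM was 0.228 ± 0.0454 untreated and 0.0439 ± 0.00155 with IFN-γ, with no overlap and an exact permutation p of 0.1. Ltbr, the lymphotoxin beta receptor that LIGHT also binds, rose 1.21-fold (adjusted p = 0.0106, edgeR). That call was lost with upper quartile scaling (0.123 on the log2 scale), with total counts alone (0.102), and without untreated replicate 3 (adjusted p = 0.0597) or IFN-γ replicate 3 (0.0519). Those scalings moved the median of all genes by -0.147 and -0.17, so relative to the median Ltbr lay near its value in the TMM fit. Tnfrsf10b, the death receptor for TRAIL, was at 3.435 ± 0.727 and 4.083 ± 0.412 CPM, with a 95% interval of the log2 fold change from -0.129 to 0.615 (adjusted p = 0.285, edgeR).

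Tnfrsf22 and Tnfrsf23, decoy receptors for TRAIL in the mouse, fell with log2 fold changes of -0.88 ± 0.09 and -0.34 ± 0.10 (SE). They share sequence with each other, in 27.4% and 18.0% of their 50-base stretches, which leaves the count of each uncertain. Tnfrsf23 lost its call without untreated replicate 3 (adjusted p = 0.0741), IFN-γ replicate 2 (0.0842) or IFN-γ replicate 3 (0.0838). The secreted decoy receptor Tnfrsf11b was at 0 counts in each of the 6 libraries. Tnfrsf13b, the receptor TACI for BAFF and APRIL, had 69.48 ± 1.09 CPM untreated and 78.81 ± 1.46 CPM with IFN-γ, or 0.18 ± 0.05 (SE) on the log2 scale (adjusted p = 0.0233, edgeR). Of 16 alternatives, 8 kept that call. It was lost with upper quartile scaling (0.034), with total counts (0.012), with no filter on low counts (adjusted p = 0.0751), and at adjusted p between 0.0682 and 0.0996 when any library but untreated replicate 2 was left out. Upper quartile scaling and total counts moved the median of all genes by -0.147 and -0.17. Relative to that median Tnfrsf13b lay near its value in the TMM fit. The other receptors for these ligands, Tnfrsf13c and Tnfrsf17, had at most 4 counts in any library. Tnfrsf12a, the receptor of TWEAK, was at 19.63 ± 1.67 and 18.28 ± 1.55 CPM, and Tnfrsf9, which encodes 4-1BB, at 2.376 ± 0.345 and 2.62 ± 0.569 CPM, and neither passed the test. Tnfrsf25, the receptor of TL1A, had at most 1 count in any library.

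Besides the 10 genes, 36 other ligands and receptors of the superfamily were listed, of which 19 could be tested. The 36 include the receptors of the other ligands described above. Of the 3 ligands tested, Tnfsf4, Tnfsf8 and Ltb, all were called higher, at log2 fold changes of 1.09 ± 0.17, 0.985 ± 0.21 and 0.83 ± 0.28 (SE). Ltb, at an adjusted p of 0.0492, kept its call in 5 of 15 alternatives and lost it by DESeq2 (0.142), while Tnfsf4 and Tnfsf8 kept theirs in 15 of 15. Tnfsf4, the gene of OX40 ligand, went from 0.698 ± 0.0693 to 1.484 ± 0.0855 CPM, and Tnfsf8, the gene of CD30 ligand, from 0.608 ± 0.119 to 1.212 ± 0.137 CPM. The 7 ligands that passed no filter included Tnfsf11, Cd40lg and Fasl, each with 0 counts in all 6 libraries. Of the 16 receptors tested, 5 rose and 6 fell, with a median log2 fold change of -0.047. Beside these stand 19.6% called higher and 16.8% called lower over all genes tested. The largest rises were Cd40, a receptor through which T cells activate macrophages, at 22.5-fold (adjusted p = 5.38e-09), then Tnfrsf14, and Fas, a death receptor, at 5.64-fold (adjusted p = 1.54e-06, edgeR). The falls, whose 6 genes are named after their values were seen, were Tnfrsf8, Tnfrsf21, Tnfrsf22, Tnfrsf23, Tnfrsf26 and Relt, all below 2-fold. DESeq2 called 4 receptors lower. Relt, at an adjusted p of 0.0461 in edgeR, kept its call in 5 of 15 alternatives and lost it by DESeq2 (0.131), with the replicate block (0.0511) and with each library left out. Tnfrsf8 kept its call in 9 of 15 and lost it by DESeq2 (0.125). With upper quartile scaling or total counts 3 receptors were higher. Without untreated replicate 3 or IFN-γ replicate 3, 3 were higher and 3 lower, and 3 were lower without IFN-γ replicate 2.

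**Figure D4:**
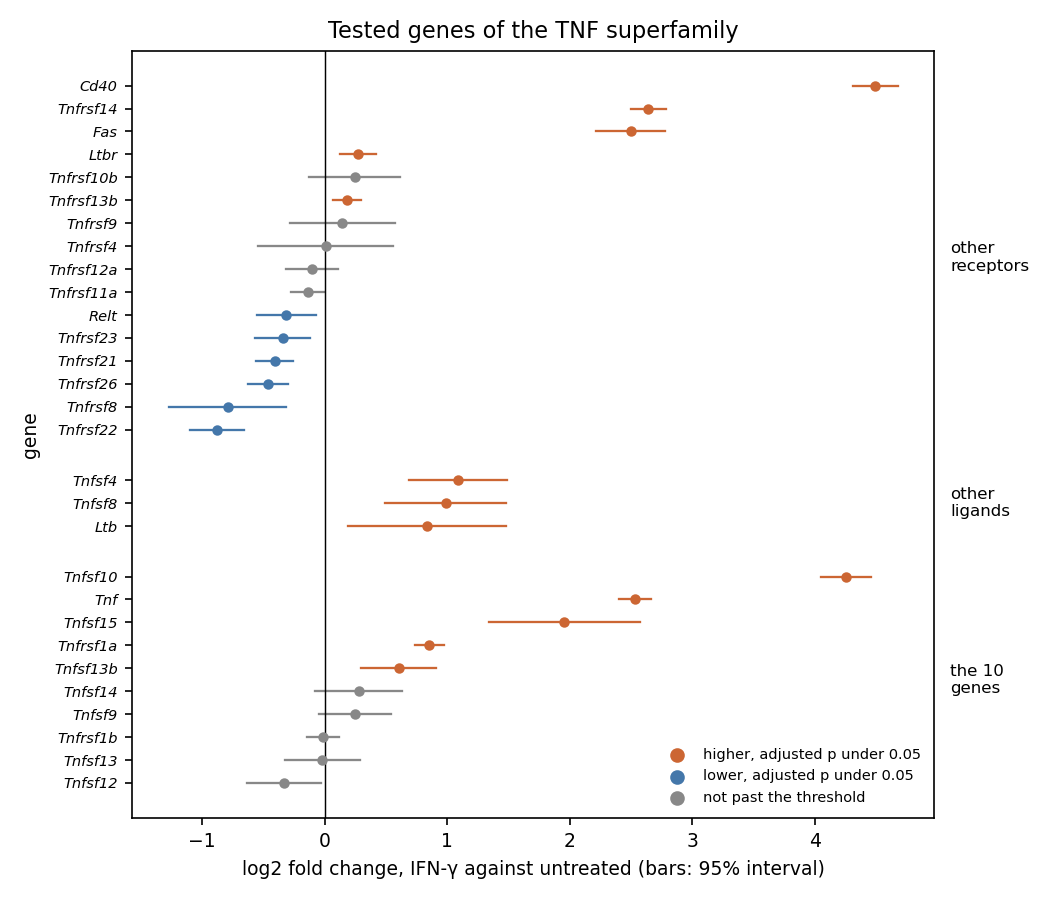
Log2 fold change with 95% interval (x axis) for the 29 tested genes of the TNF superfamily, grouped into the 10 genes, other ligands and other receptors (3 libraries a group). Cd40 and Tnfsf10 lie above 4, and the receptors in blue were called lower, all with log2 fold changes between -0.88 and -0.316.

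Genes that release or mature the ligands rose in part: of 7 tested, 3 were called higher and 4 were not called. The share called higher among all genes tested was 19.6%. Rhbdf2, the inactive rhomboid protein iRhom2 that carries ADAM17 to the surface of macrophages, rose from 26.51 ± 0.483 to 92.94 ± 7.04 CPM, 3.51-fold (adjusted p = 3.9e-07, edgeR). Furin, the protease that cleaves ligands such as APRIL and BAFF, rose 1.8-fold (adjusted p = 6.39e-05). Adam17 itself rose 1.5-fold, from 198.4 ± 12.4 to 297.1 ± 7.56 CPM (adjusted p = 0.000184). Without untreated replicate 2, and with the exon length trend removed, 5 of the 7 were higher.

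Genes that control Tnf mRNA moved both ways: of 13 tested, 4 rose and 3 fell, with a median log2 fold change of 0.077. Among all genes tested, 19.6% were called higher and 16.8% lower. Zfp36, the gene of tristetraprolin, which binds and destabilizes Tnf mRNA, rose 2.38-fold from 179.7 ± 7.7 to 427.7 ± 9.89 CPM (adjusted p = 1.07e-06, edgeR). Mapkapk2, the kinase MK2 that restrains tristetraprolin, rose 2.2-fold (adjusted p = 2.29e-06). Map3k8, the kinase TPL2 needed for TNF production, rose 1.56-fold (adjusted p = 0.000228). Among the falls, Zfp36l1, a relative of Zfp36 named after its values were seen, had a log2 fold change of -0.594 ± 0.05. Without IFN-γ replicate 2, 1 gene of the list was lower.

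Of 25 genes that act below TNF receptors, 14 rose and 3 fell, with a median log2 fold change of 0.418. For this list and the next, the shares over all genes tested were 19.6% higher and 16.8% lower. Traf1, an adaptor bound by TNFR2, rose 4.73-fold (adjusted p = 1.85e-07, edgeR). Cflar, the gene of the caspase-8 inhibitor cFLIP, rose 3.61-fold (adjusted p = 9.27e-06), and Tnfaip3, the gene of the NF-κB inhibitor A20, rose 3.44-fold from 72.3 ± 5.99 to 248.4 ± 16.1 CPM (adjusted p = 9.96e-07). The first adaptors of the TNFR1 complex, Tradd and Ripk1, were named after their values were seen. They had log2 fold changes of -0.129 and 0.077, and neither passed the test. The 3 falls, also named after their values were seen, were Otulin, Fadd and Map3k5. They kept their calls in 16, 10 and 11 of 16 alternatives. With total counts alone 5 genes of this list were lower, with no filter on low counts 1, and with each library left out between 1 and 2. Of the 8 tested of 9 genes named Tnfaip or Litaf, 4 rose. Tnfaip8l3 had the largest change, 5.13-fold from 0.421 ± 0.149 CPM, and Tnfaip2 rose 4.47-fold to 727.3 ± 5.18 CPM (adjusted p = 4.5e-08, edgeR). None of the 8 was called lower, against 2 at an unadjusted p under 0.05 and 0 by DESeq2 or limma-voom, but 3 were called lower with upper quartile scaling or total counts and 1 without IFN-γ replicate 2.

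**Figure D5:**
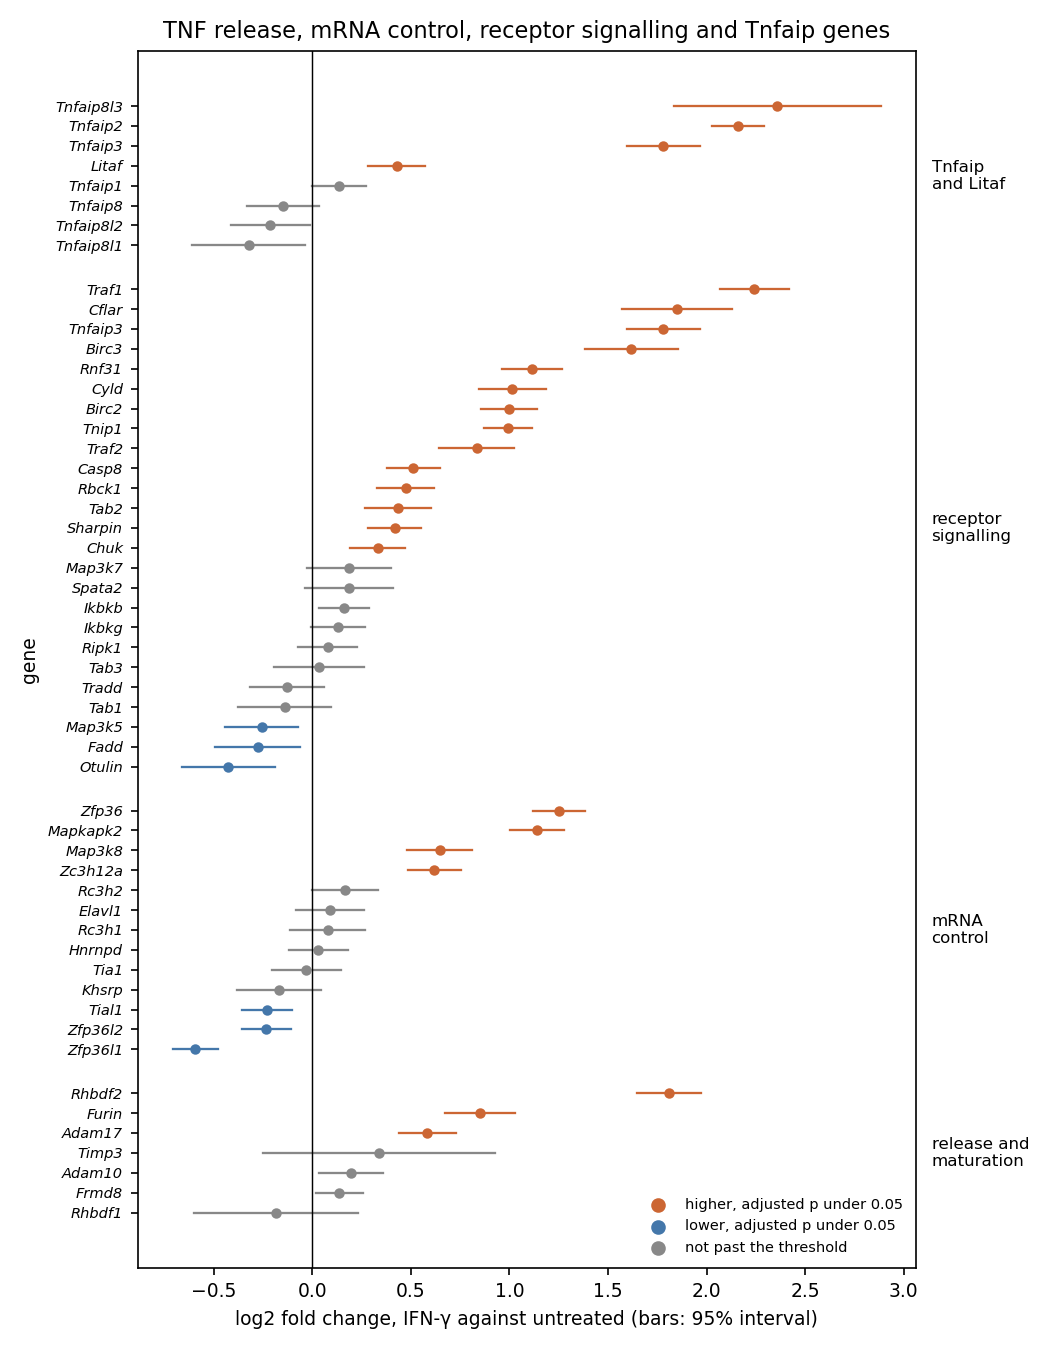
Log2 fold change with 95% interval (x axis) of the tested genes in 4 lists: ligand release and maturation, Tnf mRNA control, receptor signalling, and Tnfaip genes with Litaf (3 libraries a group, Tnfaip3 shown in both of its lists). Receptor signalling holds 14 genes called higher and 3 called lower.

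Of 12 other entries within 50 kb of Tnf in the tables, 7 were tested and 4 were called higher. These were Aif1, Nfkbil1, Ddx39b and Ltb, with log2 fold changes of 0.49, 0.35, 0.205 and 0.83, beside 2.53 for Tnf. Ddx39b kept its call in 4 of 16 alternatives, Nfkbil1 in 9 of 16 and Aif1 in 12 of 16. Ltb, the gene of lymphotoxin beta, lies 3062 bases from Tnf and had 16, 12 and 9 counts untreated and 22, 21 and 24 with IFN-γ. Lta, the gene of lymphotoxin alpha and the closest of these at 1158 bases, had 2, 3 and 3 counts untreated and 6, 9 and 17 with IFN-γ. Its groups did not overlap, but it was too low to test. Within 50 kb of any of the 10 genes lay 47 other entries, of which 29 were tested, 11 rose and 1 fell. Over all genes tested, 19.6% were called higher and 16.8% lower. Upper quartile scaling left 5 higher, total counts 6, and leaving out untreated replicate 3, IFN-γ replicate 2 or IFN-γ replicate 3 left 5, 6 and 5. The 1 that fell was Tnfrsf8, beside Tnfrsf1b, and its call was lost when untreated replicate 3 or any one of the IFN-γ replicates was left out. The largest changes were C3, a complement gene 9786 bases from Tnfsf14, at 2.14 ± 0.14, and Plekhg6, on the other strand 168 bases from Tnfrsf1a, at 1.595 ± 0.20. Beside Tnfsf13b, Abhd13 rose by 0.235 ± 0.06, a call that 10 of 16 alternatives kept.

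The genes whose profile over the 6 libraries lay closest to that of Tnf were named by a fixed measure, the root mean square difference of log2(CPM + 0.5) after subtracting each gene's untreated mean. Of 9610 genes compared, Tapbpl, Samhd1, Cd83, Ifi206 and Ifit1 lay closest, at 0.033, 0.036, 0.037, 0.06 and 0.07. The measure itself picks genes whose change is near that of Tnf. Their fold changes were 5.83, 5.86, 6.16, 6.35 and 5.67, beside 5.78 for Tnf. Of the 50-base stretches of Ifi206, 25.6% occur in another gene, so its count is uncertain.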

How the data were processed

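Total RNA behind 3 untreated and 3 IFN-γ libraries was taken up in Trizol and prepared with a stranded KAPA kit for mRNA, per the labels' protocols. The submitters' processing notes name HISAT2 and mm10. No source used here states which tool counted the reads, whether strand was used, or where reads shared by genes went. Per the file headers, the authors deposited a count, TPM and FPKM per gene. The deposited counts are whole numbers, not normalized, and were tested. The deposited TPM equal those recomputed from counts and lengths to within 7.3e-11 and were used for levels only. The deposited FPKM were not used.

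Counts were fitted over the whole table with edgeR 4.0.16 in R 4.3.3: filterByExpr (minimum count 10, minimum total 15), TMM, then glmQLFit and a two-sided glmQLFTest, adjusted by Benjamini-Hochberg across 12968 genes. Standard errors were taken as log2 fold change over root F, and intervals use the fit's degrees of freedom. No 2 replicates agreed within sampling noise. For replicates 1 with 2, 1 with 3 and 2 with 3, chi-square per degree of freedom was 82, 53.53 and 27.73 untreated. With IFN-γ it was 13.57, 17.31 and 2.06. Alternatives, limma 3.58.1 and DESeq2 1.42.0 among them, are given in the closing section. The genes, lists and tests were chosen with earlier results of these data known. Named besides the 10 genes were the receptors of their ligands, up to 3 called genes of each list by size of change with at least 1 CPM, called genes within 50 kb (the largest change only, except for Tnf), and the 5 genes most like Tnf among those of at least 5 CPM. Ratios were tested by exact permutation in Python 3.11.15 with scipy 1.17.1. A result on 1 further sequence motif is not reported here.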

Additional observations from a re-analysis of the deposited data

How the results depend on the processing

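Of 157 recomputed log2 fold changes of the 10 genes under 16 alternatives, 148 kept their side of the threshold. Another 9 passed it where the main fit did not, none lost a call, and none that was called changed direction. Below the threshold signs did change: Tnfsf13, at -0.019 in the main fit, reached 0.086, and Tnfrsf1b, at -0.011, reached 0.02. Of the 10 genes, 3 were higher with a filter of 5 CPM in 3 samples, since fewer genes were then tested. Lower were 2 with upper quartile scaling, 2 with total counts, and 1 each with DESeq2, the replicate block and the exon length trend removed. Other family members higher were 5 with upper quartile scaling, total counts or the stricter filter, against 8 in the main fit. With each library left out, between 5 and 7 were higher and between 3 and 6 lower. Pathway genes lower numbered 11 with upper quartile scaling and 12 with total counts, against 6, and between 3 and 6 with each library left out. Neighbours higher were 5 with upper quartile scaling, 6 with total counts, 7 with the stricter filter and between 5 and 12 with each library left out. Neighbours lower were 3 and 5 with those scalings, 0 with no filter, the stricter filter or DESeq2, and between 0 and 1 with each library left out. Over all genes, leaving out untreated replicate 2 gave 3174 higher and 2793 lower, against 2539 and 2176 in the main fit. Leaving out any other library gave between 1991 and 2432 higher and between 1451 and 1915 lower. Total counts gave 1666 higher and 4520 lower, and upper quartile scaling 4097 lower. These scalings put 26.9% and 30.6% of calls on the higher side, against 53.8%. The cause was not tested. Same-numbered libraries did not deviate together in every pair (correlations of 0.306, 0.144 and -0.07 of deviations from the group means), and not every library correlated best with its own number, so the numbers were not taken as pairs. With the replicate block, Tnfsf12 had a log2 fold change of -0.324 and an adjusted p of 0.0465. Depth limits Tnfsf15, with 6 to 11 counts untreated.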
